A study of Homo sapiens with 12 samples.

Results

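Eliglustat and venetoclax were compared as single drugs in MV-4-11 cells, from the transcript levels of 6 of the series' 12 RNA sequencing libraries. The 3 libraries of cells given eliglustat (ELI) were set against the 3 libraries of cells given venetoclax (ABT, after its code name ABT-199), all taken at 48 h. MV-4-11 is an established human acute myeloid leukemia line with monocytic features, labelled as wild type, as of bone marrow and as AML. No source used here gives the doses, so the values describe 2 treatments as they were applied and not equal amounts of drug. The 3 libraries of cells given both drugs (Comb) and the 3 vehicle libraries (DMSO) entered the estimate of the spread and place the single drugs against the rest of the series. Of 20036 genes in the deposited table, 9959 reached 1 FPKM (reads per kilobase of gene model, scaled to the library's reads) in at least 3 of the 12 libraries and were tested. A log2 difference is ELI minus ABT of the mean log2(FPKM + 1) throughout, a scale that understates changes of genes at low level. Nothing in the labels states that replicates were grown as independent cultures, and the p-values therefore reflect the spread among these libraries alone, possibly a technical one.

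Eliglustat blocks glucosylceramide synthase, the product of UGCG, which attaches glucose to ceramide at the entry to the glycosphingolipid pathway. Venetoclax is a BH3 mimetic: it occupies the groove of the anti-apoptotic protein BCL2 and frees the death-promoting partners that BCL2 would hold at mitochondria. The drugs therefore act on different proteins in different compartments, a lipid-making enzyme of the Golgi and a survival protein of the mitochondrial surface. RAB32, a small GTPase that sits where the endoplasmic reticulum meets mitochondria, is named in the title of the series.

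Libraries differed in their base composition, and not along the groups alone. Across genes, the deviation from the group mean followed GC content with a Spearman's rho of -0.703 in ELI replicate 1 and -0.699 in ABT replicate 1, against 0.69 in ELI replicate 2 and 0.62 in ABT replicate 3. In DMSO it was -0.791 in replicate 1 and 0.814 in replicate 2, and in Comb replicate 1 it was 0.0671. The log2 difference between the drugs itself followed GC content with a rho of -0.624 across 9936 genes, and gene length with a rho of 0.241. Genes are not independent replicates, and these are descriptions. For this reason a GC-adjusted value, from a fit in which each library's trend on GC content and gene length was removed and the replicate number was a block, is given for the genes named where it changes the call or shifts the value by more than 1.5 times, and for lists where it turns the median or shifts the median or a count by as much. Reads recovered from the FPKM values numbered 17958939 to 21082288 per ELI library and 18047255 to 19847569 per ABT library. All 12 marker genes of the line (FLT3, HOXA9, LYZ and others) reached 1 FPKM in at least 1 ELI library, and 11 did so in ABT, where ITGAM did not. Their summed level was 733 to 747 FPKM in ELI, 646 to 691 FPKM in ABT and 694 to 716 FPKM in DMSO. The T and NK cell markers CD3D, CD2 and LCK and the erythroid and platelet markers HBB, PF4 and PPBP were listed at 0 in all 9 of these libraries.

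Most tested genes differed between the drugs, and most of the differences were small. At a limma adjusted p under 0.05, 6279 of 9959 genes (63.0%) passed, 3310 of them higher in ELI (33.2% of those tested) and 2969 lower (29.8%). The counts of every list below stand against these shares. The median size of a passing log2 difference was 0.448, and 3665 of the passing genes lay under 0.5. A log2 difference of at least 1 was reached by 302 genes (3.03%), of which 263 were higher in ELI (2.64%) and 39 lower (0.392%). The 3 ELI and 3 ABT values did not overlap in 71.2% of tested genes. The balance of directions moved with GC content: 52.7% of passing genes were higher in ELI, against 41.7% once the trend was removed without a block, 41.9% with it, and 49.9% under median-of-ratios scaling. With the trend removed, 2487 of 9936 genes with a known GC content passed as higher in ELI and 3483 (35.1%) as lower, and with the block added 26.4% passed as higher and 36.7% as lower. Of the 6279 genes, 4385 (69.8%) passed in the same direction after GC adjustment and 203 passed in the opposite direction. All 302 genes past 1 passed in the same direction, and 109 of them kept a size of at least 1, 90 higher and 19 lower.

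**Figure D1:**
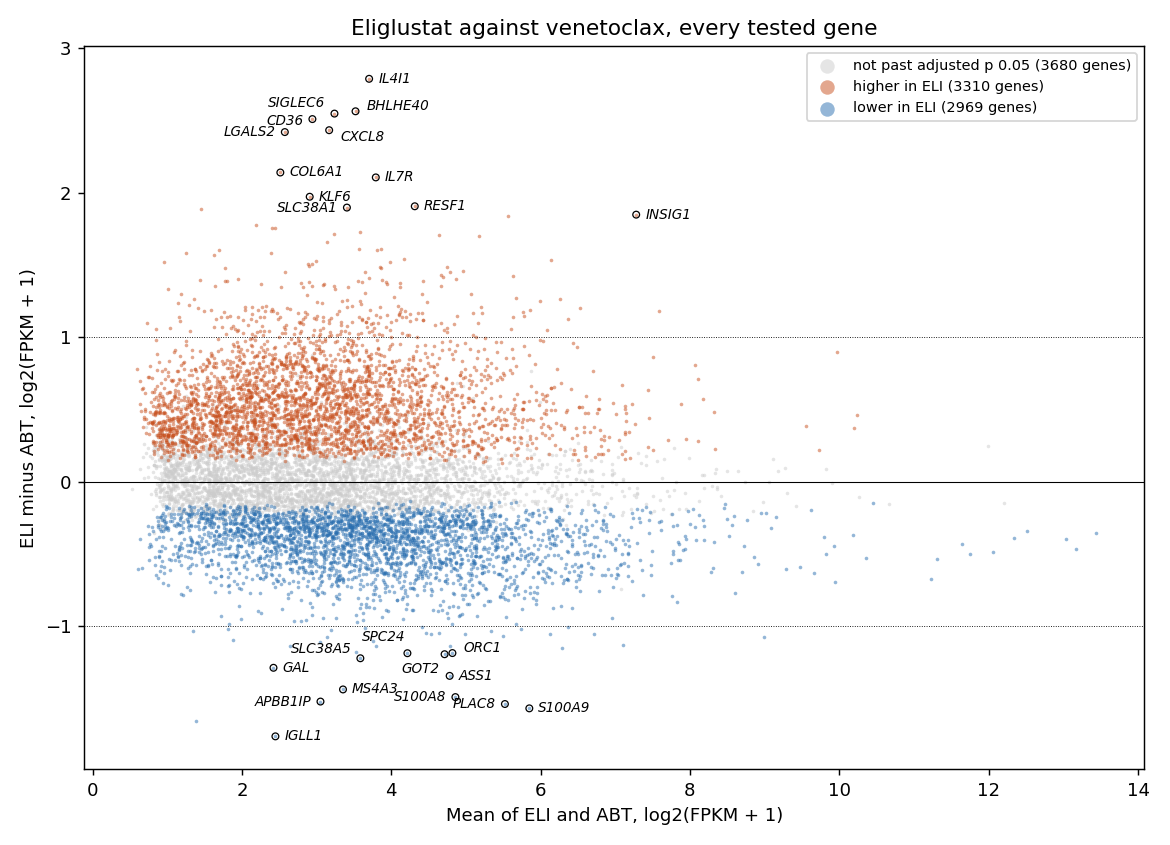
Log2 difference between ELI and ABT (vertical axis) against the mean level of the 6 libraries (horizontal axis, log2(FPKM + 1)) for all 9959 tested genes. Orange points passed as higher in ELI, blue points passed as lower in ELI, grey points did not pass, dotted lines mark a difference of 1, and the 12 highest and 12 lowest genes by the naming rule are labelled, from IL4I1 at 2.79 to IGLL1 at -1.76.

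The transcript of the eliglustat target differed between the drugs and that of RAB32 did not pass. UGCG (ENSG00000148154, chromosome 9 from 111896766 to 111935369, plus strand, GRCh38 with GENCODE 29) stood at 312, 264.4 and 286.6 FPKM in ELI, against 147, 127.1 and 107.6 FPKM in ABT and 216.5, 137 and 160.0 FPKM in DMSO. Every ELI library lay above every ABT and DMSO library, and 2 of the 3 ABT libraries lay under all DMSO libraries. The log2 difference of UGCG was 1.18 (SE 0.15, limma adjusted p = 9.2e-05). BCL2 (ENSG00000171791, chromosome 18 from 63123346 to 63320128, minus strand), which encodes the protein that venetoclax binds, had 26.6, 26.2 and 25.9 FPKM in ELI, against 23.2, 20.3 and 18.3 FPKM in ABT and 25.7, 19.99 and 21.3 FPKM in DMSO. Its ELI values were close to each other and above all ABT values. BCL2 was higher in ELI by a log2 difference of 0.34 (SE 0.10, limma adjusted p = 0.0097), and by 0.14 after GC adjustment (limma adjusted p = 0.027). RAB32 (ENSG00000118508, chromosome 6 from 146543693 to 146554965, plus strand) had 18.6, 21.1 and 21.6 FPKM in ELI, against 19.98, 20.7 and 26.1 FPKM in ABT and 18.1, 23.5 and 19.8 FPKM in DMSO. The groups overlapped, and the log2 difference of -0.11 had a 95% interval of -0.36 to 0.14 (limma adjusted p = 0.40). The sign was the opposite without ABT replicate 3 (0.0055) and after GC adjustment (0.051), neither of which passed.

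**Figure D2:**
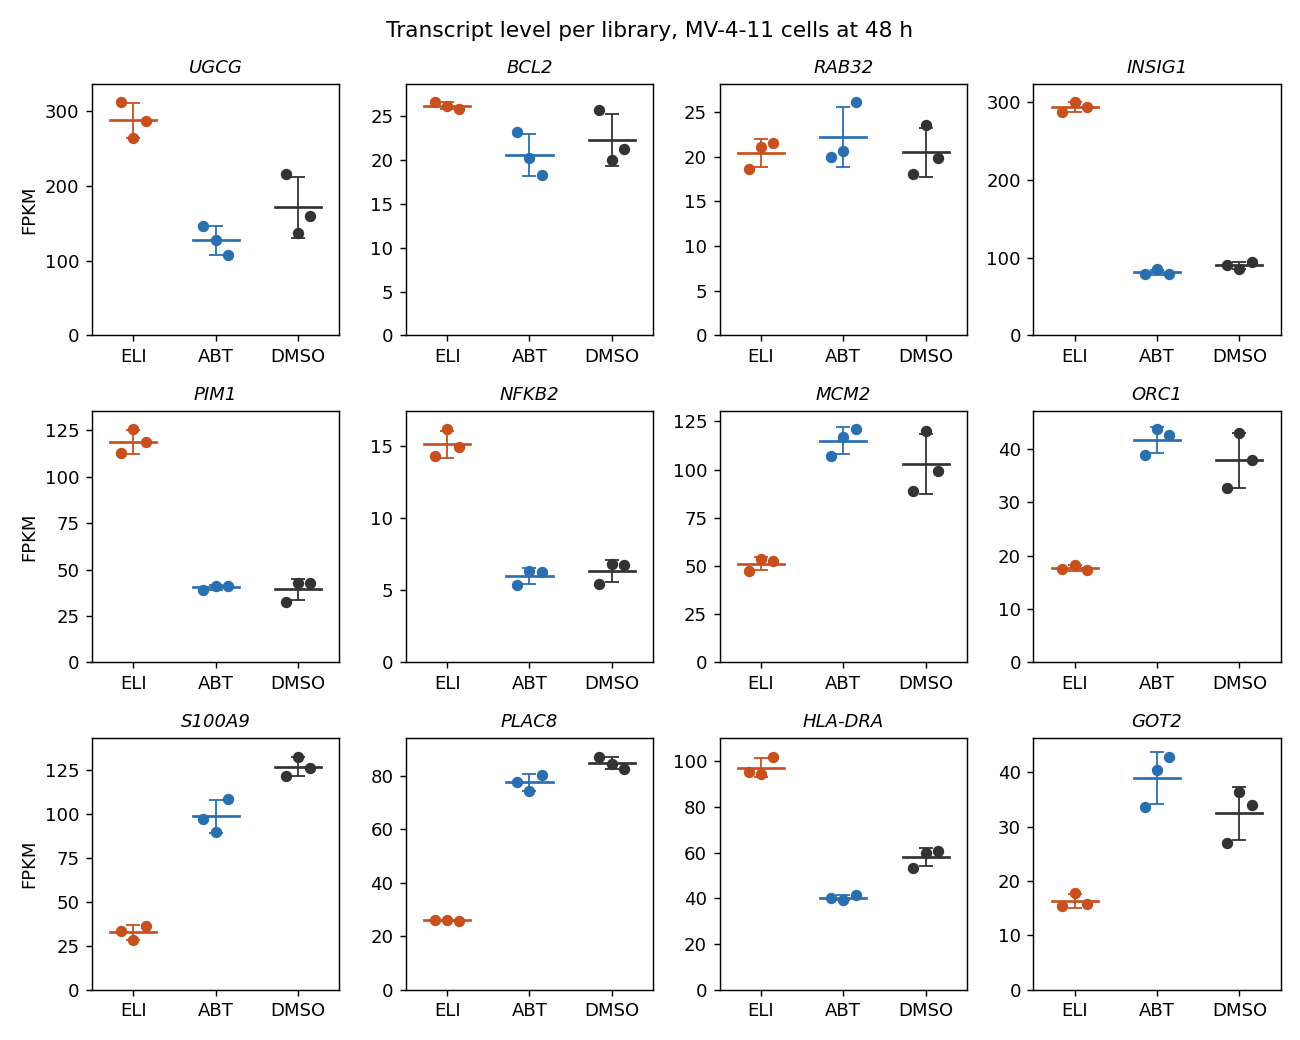
FPKM per library (points) with the group mean (horizontal line) and SD (bars, n = 3) in ELI, ABT and DMSO for 12 genes, each on its own axis from 0. The ELI libraries lie apart from the ABT libraries in every panel except RAB32, with UGCG, BCL2, INSIG1, PIM1, NFKB2 and HLA-DRA higher and MCM2, ORC1, S100A9, PLAC8 and GOT2 lower in ELI.

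Genes of sterol synthesis and uptake were higher in ELI. They are switched on by the SREBP2 transcription factor when the endoplasmic reticulum senses little cholesterol. Of 24 tested members 16 rose, 2 fell and 6 did not pass, and 8 of those that rose reached a log2 difference of 1. The list's median was 0.50, against 0.023 over all tested genes. INSIG1, which holds the SREBP complex in the endoplasmic reticulum and is itself a target of it, had 288, 300.0 and 294 FPKM in ELI, against 78.9, 85.2 and 78.6 FPKM in ABT and 90.8, 85.0 and 94.6 FPKM in DMSO. Every ELI value lay far above every ABT and DMSO value, while ABT and DMSO overlapped. INSIG1 (chromosome 7 from 155297776 to 155310235, plus strand) had a log2 difference of 1.85 (SE 0.06, limma adjusted p = 4.1e-09). HMGCS1, which makes the HMG-CoA that enters the mevalonate pathway, had 53.9, 48.0 and 50.1 FPKM in ELI, against 20.3, 19.5 and 14.1 FPKM in ABT, a log2 difference of 1.46 (SE 0.15, limma adjusted p = 2.3e-05). MSMO1, a demethylase of the later steps, differed by 1.42 (SE 0.11, limma adjusted p = 2.9e-06). STARD4, a cytosolic carrier of cholesterol, differed by 1.37 (SE 0.16, limma adjusted p = 4.7e-05), and by 0.64 after GC adjustment. The sterol regulatory element, looked for as TCACNCCAC on either strand in the 250 bases before the start of each gene in the RefSeq promoter table (GRCh38.p14), was present for 1 of the 18 sterol genes with an entry (5.56%), SREBF2, against 0.807% of 8178 tested genes and 0.883% of 35116 promoters.

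Fatty acid genes followed the same direction, and sterol export was mixed. Of 18 tested members of the fatty acid list 14 rose, 1 fell and 3 did not pass, with a median of 0.36 (12 and 2 after GC adjustment, with a median of 0.22). SCD, the desaturase that makes oleate, had 338, 369 and 359 FPKM in ELI, against 190, 209 and 209 FPKM in ABT and 177, 217 and 208 FPKM in DMSO. All ELI values were higher than all others, and the log2 difference was 0.81 (SE 0.08, limma adjusted p = 1.3e-05). ACSL4 and ACSL3, which activate long-chain fatty acids, differed by 1.38 (SE 0.25) and 1.02 (SE 0.18), and by 0.77 and 0.43 after GC adjustment. INSIG2, a relative of INSIG1, differed by 0.75 (SE 0.19), and by 0.21 after GC adjustment. Among 6 tested genes of the LXR receptors and sterol export, 2 rose, 1 fell and 3 did not pass (4 and 1 after GC adjustment), and their median was 0.015, or 0.17 after it. ABCA1, the cholesterol exporter, had 2.88, 2.81 and 2.52 FPKM in ELI, against 0.64, 0.59 and 0.57 FPKM in ABT, and its log2 difference was 1.22 (SE 0.08, limma adjusted p = 9.6e-07). PLTP, which transfers phospholipids between lipoproteins, fell by 0.52 (SE 0.08, limma adjusted p = 0.00020), or by 0.30 after GC adjustment, with 7.87% of its exonic bases shared with CTSA on the opposite strand.

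In the glycosphingolipid pathway single enzymes differed, while before GC adjustment fewer members passed than the 63.0% over all tested genes. Of 6 tested synthesis genes UGCG and UGT8, the enzyme that makes galactosylceramide, rose, and 4 did not pass, with a list median of -0.037, or 0.071 after GC adjustment. UGT8 was near the filter, with 1.89, 1.35 and 1.40 FPKM in ELI, against 1.03, 0.63 and 0.52 FPKM in ABT (log2 difference 0.57, SE 0.11, limma adjusted p = 0.0013, and 0.27 after GC adjustment). Of 14 tested breakdown genes 5 rose, 1 fell and 8 did not pass, and after GC adjustment 9 rose and 2 fell. The share that rose was near the 33.2% over all tested genes before adjustment. After it, the 9 of 14 that rose and 2 that fell stood against 26.4% higher and 36.7% lower over all genes. ASAH1, the lysosomal acid ceramidase, had 16.2, 13.4 and 14.6 FPKM in ELI, against 4.58, 3.72 and 3.63 FPKM in ABT and 6.33, 4.49 and 4.68 FPKM in DMSO. ELI and ABT were far apart, and ABT overlapped DMSO. The log2 difference of ASAH1 was 1.66 (SE 0.11, limma adjusted p = 9.8e-07). NEU1, a lysosomal sialidase, differed by 0.64 (SE 0.09), and PSAP, the precursor of the saposin cofactors, by 0.38 (SE 0.10).

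Ceramide and sphingomyelin synthesis held 7 genes that rose, 5 that fell and 8 that did not pass, with a median of 0.13, or -0.0039 after GC adjustment. These shares were near the 33.2% higher and 29.8% lower over all tested genes. CERT1, which carries ceramide to the Golgi for sphingomyelin synthesis, had 6.28, 5.23 and 5.59 FPKM in ELI, against 2.82, 1.95 and 1.62 FPKM in ABT, and differed by 1.11 (SE 0.16, limma adjusted p = 0.00023), or 0.67 after GC adjustment. SPTLC2, a subunit of the enzyme that starts sphingoid base synthesis, differed by 0.85 (SE 0.09, limma adjusted p = 1.8e-05), or 0.56 after GC adjustment. SGMS1, a sphingomyelin synthase, was low, at 1.40, 1.53 and 1.54 FPKM in ELI, against 0.55, 0.42 and 0.42 FPKM in ABT (log2 difference 0.77, SE 0.07, and 0.47 after GC adjustment). ORMDL1, a brake on sphingoid base synthesis, differed by 0.77 (SE 0.10, limma adjusted p = 0.00012), a call that was lost after GC adjustment (0.12, limma adjusted p = 0.15).

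Lysosome, proton pump and autophagy genes were more often higher than lower in ELI. Lysosomal enzymes and membrane proteins, which digest lipids and proteins delivered by endocytosis and autophagy, had 21 of 38 tested members that rose, 6 that fell and 11 that did not pass, with a median of 0.27. Among them CTSH, a cysteine protease, had 9.70, 11.3 and 10.7 FPKM in ELI, against 4.62, 4.72 and 5.21 FPKM in ABT (log2 difference 0.98, SE 0.09, limma adjusted p = 6.5e-06). MANBA, a mannosidase, differed by 0.87 (SE 0.08, limma adjusted p = 1.1e-05). The V-ATPase, the pump that acidifies the lysosome, had 10 of 15 members that rose, 1 that fell and 4 that did not pass, with a median of 0.41 (9 and 0 after GC adjustment). Its members ATP6V1C1 (0.96, SE 0.19), ATP6V1A (0.88, SE 0.11), ATP6AP2 (0.79, SE 0.08) and ATP6V1D (0.76, SE 0.14) had the largest log2 differences, and after GC adjustment the first 3 stood at 0.51, 0.48 and 0.34. Of 28 tested autophagy genes 17 rose, 3 fell and 8 did not pass, with a median of 0.29, or 0.15 after GC adjustment. SQSTM1, the cargo receptor p62, had 25.1, 28.3 and 27.7 FPKM in ELI, against 11.1, 12.6 and 12.3 FPKM in ABT and 9.36, 12.1 and 11.2 FPKM in DMSO. ELI was apart from both, and the log2 difference was 1.11 (SE 0.09, limma adjusted p = 3.0e-06). Its exons share 20.7% of their bases with MRNIP on the opposite strand, and no source used here says whether the counting used strand. BNIP3L, a mitophagy receptor, differed by 1.45 (SE 0.19, limma adjusted p = 9.6e-05). TBC1D15, a RAB regulator in mitophagy, differed by 1.14 (SE 0.20), or 0.49 after GC adjustment, and TAX1BP1, another cargo receptor, by 0.96 (SE 0.24).

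The sequence that the transcription factor TFEB recognises, the CLEAR element, was looked for as TCACGTG on either strand in the 250 bases before the start of each gene in the RefSeq promoter table (GRCh38.p14). It was present for 6 of the 26 lysosomal genes with an entry (23.1%), against 5.66% of 8178 tested genes with an entry and 3.31% of 35116 promoters. The promoter of CTSA, the lysosomal protective protein, is shown as that of the gene with a match and the largest increase, and it held 3 matches. It lies at chr20:45891085-45891334 on the plus strand, runs 5′ to 3′, and has its matches in capitals, the last 2 of which overlap on opposite strands.
CTSA: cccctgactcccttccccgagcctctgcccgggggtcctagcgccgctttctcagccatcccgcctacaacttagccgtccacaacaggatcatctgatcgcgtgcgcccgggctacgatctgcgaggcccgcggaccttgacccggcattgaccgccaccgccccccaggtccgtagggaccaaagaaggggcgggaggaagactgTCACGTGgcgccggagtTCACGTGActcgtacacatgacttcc
CTSA itself had 10.1, 11.2 and 11.0 FPKM in ELI, against 7.26, 8.21 and 9.09 FPKM in ABT, a log2 difference of 0.36 (SE 0.09, limma adjusted p = 0.0052). It was chosen after its values were seen. A match is a description of the letters and not a site of binding.

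DNA replication genes were lower in ELI. They license origins, unwind and copy DNA and supply nucleotides in S phase, and are classic targets of the E2F factors. Of 51 tested members 0 rose, 43 fell and 8 did not pass, with a median of -0.68, against 0.023 over all tested genes. After GC adjustment 51 of 51 passed as lower. In a culture, fewer cells in S phase and less RNA per cell cannot be told apart from these values. ORC1, the large subunit of the origin recognition complex (chromosome 1 from 52372829 to 52404459, minus strand), had 17.4, 18.3 and 17.4 FPKM in ELI, against 38.8, 43.6 and 42.5 FPKM in ABT and 32.6, 42.9 and 37.99 FPKM in DMSO. MCM2, a subunit of the replicative helicase (chromosome 3 from 127598223 to 127622436, plus strand), had 47.4, 53.5 and 52.6 FPKM in ELI, against 107, 117 and 121 FPKM in ABT and 89.1, 120 and 99.4 FPKM in DMSO. In each case ELI lay under all ABT and DMSO libraries, and ABT overlapped DMSO. ORC1 fell by 1.19 (SE 0.09, limma adjusted p = 2.6e-06) and MCM2 fell by 1.15 (SE 0.10, limma adjusted p = 4.4e-06) on the log2 scale. CHAF1B, a histone chaperone of the replication fork, fell by 1.11 (SE 0.11), and MCM5, another helicase subunit, fell by 1.07 (SE 0.09). None of these 4 values moved by more than 1.5 times after GC adjustment.

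The E2F element was looked for as TTTNNCGC on either strand in the same windows. It was present for 15 of the 43 replication genes with an entry (34.9%), against 9.77% of 8178 tested genes and 5.92% of 35116 promoters. The 4 promoters shown are those of the replication genes with a match that fell the most. They lie at chr19:4909251-4909500 (UHRF1, plus strand), chr16:88803539-88803788 (CDT1, plus), chr18:657403-657652 (TYMS, plus) and chr19:48170345-48170594 (LIG1, minus), run 5′ to 3′ on the strand of the gene and end at the base before its start, with the matches of either strand in capitals.
UHRF1: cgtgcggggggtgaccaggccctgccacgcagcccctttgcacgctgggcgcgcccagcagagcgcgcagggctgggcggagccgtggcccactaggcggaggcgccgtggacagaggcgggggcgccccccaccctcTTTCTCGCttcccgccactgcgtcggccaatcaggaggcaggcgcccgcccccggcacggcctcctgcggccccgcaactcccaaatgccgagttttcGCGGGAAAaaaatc
CDT1: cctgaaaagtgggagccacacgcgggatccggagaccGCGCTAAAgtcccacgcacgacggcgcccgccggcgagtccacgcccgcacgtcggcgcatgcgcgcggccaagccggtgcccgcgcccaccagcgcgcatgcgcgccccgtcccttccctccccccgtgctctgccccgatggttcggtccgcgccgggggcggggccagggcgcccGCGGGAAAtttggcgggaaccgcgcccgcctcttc
TYMS: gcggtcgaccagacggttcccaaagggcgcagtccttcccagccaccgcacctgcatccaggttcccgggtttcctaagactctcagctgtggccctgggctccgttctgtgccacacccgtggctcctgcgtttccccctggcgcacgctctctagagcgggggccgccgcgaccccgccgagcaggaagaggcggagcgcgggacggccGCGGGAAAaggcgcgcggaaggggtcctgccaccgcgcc
LIG1: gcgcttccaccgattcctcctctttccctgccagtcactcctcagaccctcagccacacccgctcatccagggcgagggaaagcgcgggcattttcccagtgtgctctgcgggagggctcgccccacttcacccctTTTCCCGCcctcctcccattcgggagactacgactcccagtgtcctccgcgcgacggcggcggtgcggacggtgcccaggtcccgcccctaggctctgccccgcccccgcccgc
UHRF1, which recruits the maintenance methyltransferase to new DNA, had 55.0, 60.1 and 57.0 FPKM in ELI, against 114, 123 and 112 FPKM in ABT, and fell by 1.01 (SE 0.07). CDT1, the licensing factor that loads the helicase, fell by 0.93 (SE 0.08), TYMS, the thymidylate synthase, fell by 0.90 (SE 0.11), and LIG1, which joins Okazaki fragments, fell by 0.82 (SE 0.08). These genes were chosen after their values were seen.

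The regulators of G1 and S phase held genes on both sides. Of 27 tested members 9 rose, 12 fell and 6 did not pass, with a median of 0.084, or -0.14 after GC adjustment. Over all tested genes 33.2% were higher and 29.8% lower. CDC25A, the phosphatase that activates CDK2, had 16.4, 18.2 and 18.5 FPKM in ELI, against 36.6, 43.5 and 40.7 FPKM in ABT, and fell by 1.14 (SE 0.10, limma adjusted p = 6.1e-06). MYBL2, an activator of late S phase and mitotic genes, fell by 1.13 (SE 0.10, limma adjusted p = 7.6e-06), and E2F2, an activator E2F, fell by 0.93 (SE 0.10, limma adjusted p = 2.5e-05). CDKN1B, the CDK inhibitor p27, went the other way, with 20.1, 19.2 and 18.8 FPKM in ELI, against 10.3, 8.96 and 8.04 FPKM in ABT and 10.6, 9.21 and 9.36 FPKM in DMSO. ELI lay above all other values, at a log2 difference of 1.02 (SE 0.08, limma adjusted p = 3.4e-06). CDK6, a G1 kinase that also belongs to the HOXA program list, rose by 0.92 (SE 0.21, limma adjusted p = 0.0029), or 0.41 after GC adjustment.

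Mitotic genes were mostly lower, with exceptions that moved with base composition. Of 47 tested members 7 rose, 24 fell and 16 did not pass, with a median of -0.21. With the replicate number as a block 16 rose and 24 fell, and after GC adjustment 3 rose and 28 fell. SPC24, a kinetochore subunit, had 10.6, 11.7 and 11.7 FPKM in ELI, against 25.5, 26.7 and 29.2 FPKM in ABT, and fell by 1.19 (SE 0.08, limma adjusted p = 9.2e-07). CENPM, a centromere protein, fell by 1.05 (SE 0.11, limma adjusted p = 2.0e-05). HMMR, a spindle protein, had 22.5, 12.6 and 15.96 FPKM in ELI, against 9.73, 6.30 and 5.50 FPKM in ABT, with replicate 1 the highest in both groups, and rose by 1.14 (SE 0.28, limma adjusted p = 0.0046), or 0.58 after GC adjustment. TTK, a spindle checkpoint kinase, rose by 0.98 (SE 0.29, limma adjusted p = 0.012), or 0.61 after GC adjustment. Its call was lost without ELI replicate 1 (limma adjusted p = 0.053) or ABT replicate 3 (0.056).

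Replication-dependent histone genes did not move with the replication genes. They encode the histones packed onto new DNA, and most of their mRNA lacks a poly(A) tail. No source used here gives the library method. Of 21 tested members 10 rose, 3 fell and 8 did not pass, with a median of 0.33 (12 and 1 after GC adjustment). H2AC6 had 13.2, 12.6 and 11.5 FPKM in ELI, against 3.72, 3.46 and 3.84 FPKM in ABT and 5.66, 5.79 and 6.18 FPKM in DMSO. It lay above DMSO in every ELI library and below DMSO in every ABT library, and its log2 difference was 1.53 (SE 0.07, limma adjusted p = 5.0e-08). H2BC21 (1.18, SE 0.08), H2BC12 (1.17, SE 0.07) and H2AC11 (1.06, SE 0.13) were also higher in log2 difference. These genes have near-identical copies, so their levels are uncertain where the counting could split reads between copies.

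Growth and energy genes were lower in ELI than in ABT. Rose and fell compare ELI with ABT and not with DMSO. Of 49 MYC targets and nucleolar genes, which build ribosomes, 9 rose, 30 fell and 10 did not pass, with a median of -0.27 (5 rose and 29 fell after GC adjustment). Against DMSO the list's median was 0.023 in ELI and 0.23 in ABT. CAD, the enzyme that starts pyrimidine synthesis, had 15.8, 18.8 and 16.8 FPKM in ELI, against 30.3, 31.7 and 36.8 FPKM in ABT and 22.5, 31.0 and 26.5 FPKM in DMSO. It fell by 0.90 (SE 0.11, limma adjusted p = 6.4e-05), and ABT overlapped DMSO. FBL, the methyltransferase of ribosomal RNA, fell by 0.79 (SE 0.10), SRM, the spermidine synthase, fell by 0.76 (SE 0.09), and BOP1, a factor for large subunit assembly, fell by 0.76 (SE 0.11). Of 78 cytosolic ribosomal proteins 12 rose, 33 fell and 33 did not pass, with a median of -0.16, and many of these genes have pseudogene copies that leave their levels uncertain. RPL8 had 542, 605 and 594 FPKM in ELI, against 789, 904 and 930 FPKM in ABT, and fell by 0.59 (SE 0.09, limma adjusted p = 0.00039), or by 0.36 after GC adjustment. RPL35 fell by 0.60 (SE 0.12), or by 0.39 after GC adjustment, RPSA fell by 0.58 (SE 0.10), and RPS29 fell by 0.59 (SE 0.16), or by 0.91 after GC adjustment.

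Mitochondrial genes were lower in ELI on both genomes. Of 71 tested nuclear genes of oxidative phosphorylation, the chain that makes ATP in mitochondria, 4 rose, 46 fell and 21 did not pass, with a median of -0.36 (2 and 56 after GC adjustment). Their median against DMSO was -0.25 in ELI and 0.096 in ABT. UQCRC1, a core subunit of complex III, had 36.4, 41.4 and 38.5 FPKM in ELI, against 65.5, 71.6 and 80.6 FPKM in ABT and 55.5, 70.7 and 68.0 FPKM in DMSO. ELI lay under every other value, and UQCRC1 fell by 0.88 (SE 0.10, limma adjusted p = 3.3e-05). CYC1, the cytochrome c1 of the same complex, fell by 0.77 (SE 0.10), ATP5MC3, a ring subunit of the ATP synthase, fell by 0.73 (SE 0.09), and COX8A, a small subunit of complex IV, fell by 0.74 (SE 0.21, limma adjusted p = 0.0091), with 34.5% of its exonic bases shared with another gene model. Of the 13 transcripts encoded by the mitochondrial genome 0 rose, 11 fell and 2 did not pass, with a median of -0.47. Their share of a library's reads was 5.02% to 5.79% in ELI, 6.41% to 7.37% in ABT and 5.65% to 6.96% in DMSO, and whether this share moves the other values through the scaling was not tested here. MT-CYB, the cytochrome b of complex III, had 2759, 3137 and 2797 FPKM in ELI, against 3720, 4261 and 4350 FPKM in ABT, and fell by 0.50 (SE 0.09, limma adjusted p = 0.00069). The complex I subunits MT-ND4L, MT-ND5 and MT-ND6 fell by 0.68 (SE 0.16), 0.54 (SE 0.10) and 0.53 (SE 0.12).

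The machinery that supplies mitochondria had the same direction. Of 69 mitochondrial ribosomal proteins 2 rose, 40 fell and 27 did not pass, with a median of -0.27 (4 and 41 with the block). MRPL37 had 32.7, 38.1 and 34.8 FPKM in ELI, against 62.8, 71.2 and 79.0 FPKM in ABT, and fell by 0.99 (SE 0.10, limma adjusted p = 2.3e-05), while MRPS2 fell by 0.96 (SE 0.12) and MRPL33 fell by 0.79 (SE 0.09). MRPS18A fell by 0.81 (SE 0.12), with 47.0% of its exonic bases shared with RSPH9 on the opposite strand. Of 28 genes of mitochondrial protein import and folding 4 rose, 15 fell and 9 did not pass. Their median against DMSO was -0.082 in ELI and 0.092 in ABT. TIMM10, an intermembrane chaperone, fell by 0.88 (SE 0.12), TOMM34, a cytosolic import cofactor, fell by 0.75 (SE 0.08), PMPCA, which cleaves presequences, fell by 0.72 (SE 0.11), and TIMM50, a subunit of the inner membrane translocase, fell by 0.70 (SE 0.12). GOT2, the mitochondrial aspartate aminotransferase (chromosome 16 from 58707131 to 58734357, minus strand), had 15.5, 17.8 and 15.8 FPKM in ELI, against 33.6, 40.4 and 42.9 FPKM in ABT and 27.0, 36.4 and 34.0 FPKM in DMSO. It fell by 1.20 (SE 0.11, limma adjusted p = 1.0e-05), with ELI under all other values.

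Glycolysis and proteasome lists also held more genes that fell. Of 21 glycolysis genes 5 rose, 10 fell and 6 did not pass, with a median of -0.19. Against DMSO the median was -0.095 in ELI and 0.18 in ABT. GPI, HK1, PGAM1 and GAPDH, enzymes along the pathway, fell by 0.72 (SE 0.10), 0.67 (SE 0.09), 0.65 (SE 0.09) and 0.63 (SE 0.11). GAPDH had 611, 671 and 672 FPKM in ELI, against 901, 1024 and 1119 FPKM in ABT and 735, 990 and 957 FPKM in DMSO, and fell by 0.42 after GC adjustment. It is often used as a constant in expression assays. Of 34 proteasome genes 4 rose, 20 fell and 10 did not pass, with a median of -0.21 (8 and 20 with the block, 1 and 22 after GC adjustment). Their median against DMSO was -0.094 in ELI and 0.11 in ABT. PSMB5, the catalytic subunit with chymotrypsin-like activity, fell by 0.70 (SE 0.09), PSMC3, a base ATPase, fell by 0.67 (SE 0.10), PSMB2, a core subunit, fell by 0.64 (SE 0.11), and PSME3, a nuclear activator, fell by 0.62 (SE 0.11).

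**Figure D3:**
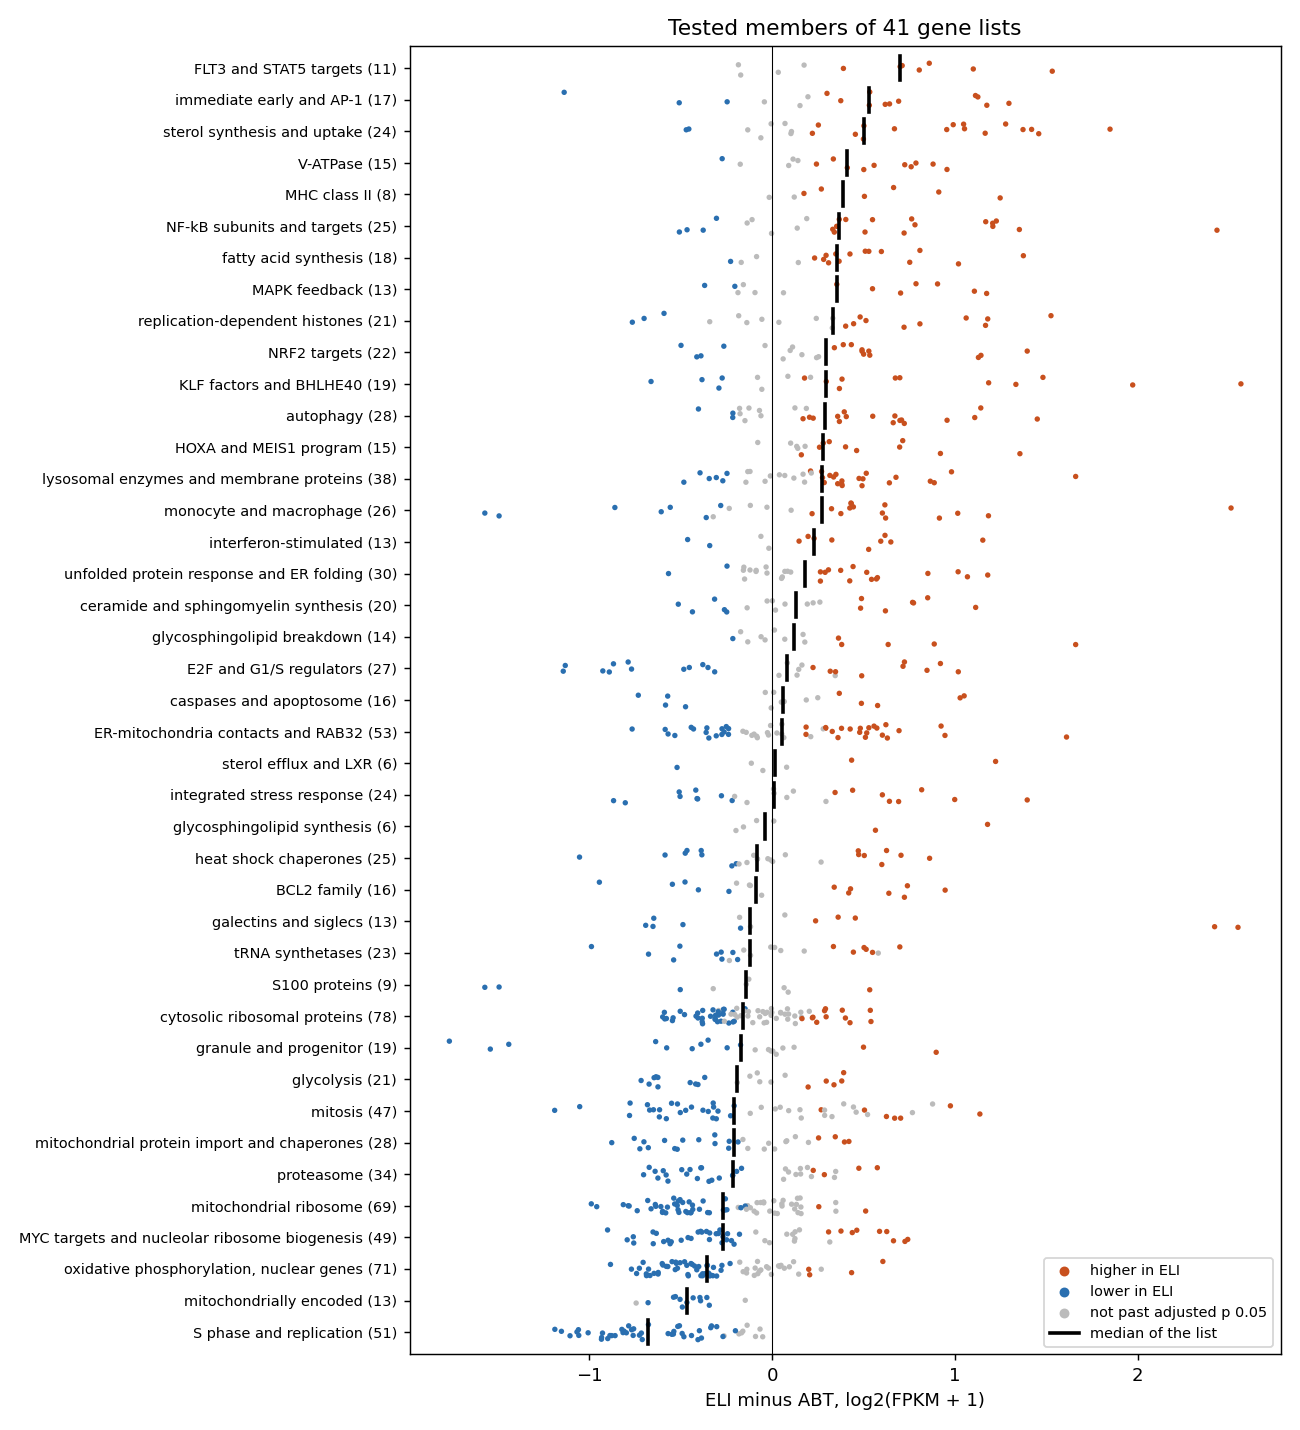
Log2 difference between ELI and ABT (horizontal axis) for every tested member of 41 gene lists (rows, number of tested members in parentheses). Points are orange where higher in ELI, blue where lower in ELI and grey where the gene did not pass, and the bar is the list's median, from -0.68 for S phase and replication to 0.70 for FLT3 and STAT5 targets.

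NF-kB genes were more often higher in ELI. NF-kB is a family of paired factors that turn on cytokine, adhesion and feedback genes, and the partners RELB and NFKB2 form its non-canonical arm. Of 25 tested subunits and targets 16 rose, 4 fell and 5 did not pass, with a median of 0.37. NFKB2 (chromosome 10 from 102394110 to 102402529, plus strand) had 14.3, 16.1 and 14.9 FPKM in ELI, against 5.35, 6.34 and 6.23 FPKM in ABT and 5.44, 6.80 and 6.75 FPKM in DMSO. RELB had 13.8, 14.5 and 14.1 FPKM in ELI, against 4.56, 5.18 and 5.01 FPKM in ABT and 3.48, 4.68 and 6.19 FPKM in DMSO. In each the ELI values stood apart while ABT and DMSO overlapped. NFKB2 rose by 1.21 (SE 0.09, limma adjusted p = 1.5e-06) and RELB by 1.35 (SE 0.13, limma adjusted p = 1.3e-05). CXCL8, the neutrophil chemokine, had 23.5, 17.4 and 19.3 FPKM in ELI, against 4.52, 2.40 and 2.08 FPKM in ABT and 8.82, 4.46 and 5.38 FPKM in DMSO, with replicate 1 the highest in each group. CXCL8 rose by 2.43 (SE 0.23, limma adjusted p = 1.2e-05). ICAM1, the ligand of leukocyte integrins, rose by 1.23 (SE 0.10, limma adjusted p = 3.8e-06). The NF-kB element, searched by name on either strand in a longer and a shorter form, was present in the 250 bases before NFKB1, NFKBIA and TNFAIP3, 3 of 19 list members with an entry (15.8%), against 2.08% of tested genes and 1.92% of promoters.

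Kinase signalling genes downstream of FLT3 and MAPK were higher in ELI as well. MV-4-11 cells carry an activated FLT3, whose signal reaches STAT5 and the MAP kinases. Of 11 tested FLT3 and STAT5 genes 7 rose, 0 fell and 4 did not pass, with a median of 0.70 (9 and 1 after GC adjustment). PIM1, a survival kinase induced by STAT5 (chromosome 6 from 37170203 to 37175426, plus strand), had 113, 126 and 119 FPKM in ELI, against 39.0, 41.2 and 41.01 FPKM in ABT and 32.8, 42.6 and 42.9 FPKM in DMSO. ELI lay far above both, and the log2 difference was 1.53 (SE 0.09, limma adjusted p = 3.5e-07). SOCS3 and SOCS2, feedback inhibitors of cytokine signalling, rose by 1.10 (SE 0.09) and 0.81 (SE 0.06), and PIM2, a relative of PIM1, rose by 0.86 (SE 0.10). Of 13 tested genes of MAPK feedback 7 rose, 2 fell and 4 did not pass, with a median of 0.35 (8 and 1 after GC adjustment). DUSP10, a phosphatase that switches off stress-activated kinases, had 22.0, 22.8 and 22.3 FPKM in ELI, against 9.58, 10.5 and 9.54 FPKM in ABT, and rose by 1.11 (SE 0.06, limma adjusted p = 2.2e-07). PHLDA1, a MAPK-induced regulator, rose by 1.17 (SE 0.08), and the phosphatases DUSP4 and DUSP5 rose by 0.91 (SE 0.07) and 0.79 (SE 0.09).

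Immediate early genes rose with a single large exception. Of 17 tested members, which respond to signals within minutes, 11 rose, 3 fell and 3 did not pass, with a median of 0.53 (14 and 1 after GC adjustment). BTG2, an antiproliferative gene, had 49.7, 53.0 and 52.7 FPKM in ELI, against 19.0, 21.6 and 21.02 FPKM in ABT and 26.9, 28.1 and 27.1 FPKM in DMSO. All ELI values lay above DMSO and all ABT values below it, and the log2 difference was 1.30 (SE 0.07, limma adjusted p = 9.3e-08). FOSB and JUN, parts of AP-1, rose by 1.17 (SE 0.06) and 1.13 (SE 0.07). FOSL2, another AP-1 part, had 7.59, 8.91 and 8.66 FPKM in ELI, against 18.6, 19.6 and 20.7 FPKM in ABT, and fell by 1.14 (SE 0.08, limma adjusted p = 7.9e-07).

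BHLHE40 and KLF6 led the transcription factor list. Of 19 tested KLF factors and clock repressors 11 rose, 4 fell and 4 did not pass, with a median of 0.30 (10 and 2 after GC adjustment). BHLHE40, a repressor that links the clock to immune responses (chromosome 3 from 4979116 to 4985323, plus strand), had 27.0, 27.3 and 26.5 FPKM in ELI, against 3.68, 3.80 and 3.68 FPKM in ABT and 2.65, 3.20 and 3.72 FPKM in DMSO. ABT and DMSO overlapped, and the log2 difference was 2.56 (SE 0.08, limma adjusted p = 4.1e-09). KLF6, a zinc finger factor, had 14.2, 13.8 and 13.7 FPKM in ELI, against 3.09, 2.86 and 2.45 FPKM in ABT, and rose by 1.97 (SE 0.09, limma adjusted p = 5.6e-08). NR1D2, a nuclear receptor of the clock, rose by 1.48 (SE 0.16), or 0.97 after GC adjustment, and KLF2, a factor of quiescence, rose by 1.33 (SE 0.08), at 0.33, 0.16 and 0.32 FPKM in ABT.

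The leukemia program of the KMT2A fusion was higher in ELI than in ABT, with its named members sensitive to base composition. Of 15 tested HOXA and MEIS1 program genes 10 rose, 0 fell and 5 did not pass, with a median of 0.28 (8 and 1 after GC adjustment, with a median of 0.18). MEIS1, the homeodomain partner of HOXA9, had 7.01, 6.58 and 6.44 FPKM in ELI, against 4.23, 3.45 and 3.55 FPKM in ABT and 4.67, 3.83 and 3.95 FPKM in DMSO. It rose by 0.70 (SE 0.08, limma adjusted p = 5.8e-05), or 0.31 after GC adjustment, and ABT overlapped DMSO. JMJD1C, a histone demethylase relative, had 15.2, 8.497 and 10.9 FPKM in ELI, against 5.05, 3.75 and 2.78 FPKM in ABT and 12.2, 4.13 and 5.70 FPKM in DMSO, and rose by 1.36 (SE 0.30, limma adjusted p = 0.0030), or 0.87 after GC adjustment. MEF2C, a factor of immature myeloid cells, rose by 0.72 (SE 0.16), or 0.18 after GC adjustment. In ELI against DMSO, JMJD1C (0.67, limma adjusted p = 0.10) and MEF2C (0.40, limma adjusted p = 0.064) did not pass. MEIS1 (0.58, limma adjusted p = 0.00034) and CDK6 (0.57, limma adjusted p = 0.049) did.

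Genes of myeloid maturation moved in different directions. Of 26 tested monocyte and macrophage genes 14 rose, 7 fell and 5 did not pass, with a median of 0.27. CD36, a scavenger receptor for lipids, had 19.7, 15.4 and 17.3 FPKM in ELI, against 3.05, 1.96 and 1.80 FPKM in ABT and 6.33, 2.71 and 3.90 FPKM in DMSO, and rose by 2.51 (SE 0.21, limma adjusted p = 4.6e-06). FCGR2A, an Fc receptor, rose by 1.18 (SE 0.08, limma adjusted p = 8.0e-07). The calcium-binding alarmins went the other way. S100A9 (chromosome 1 from 153357854 to 153361027, plus strand) had 33.5, 28.04 and 36.3 FPKM in ELI, against 97.2, 90.0 and 109 FPKM in ABT and 122, 133 and 126 FPKM in DMSO, and S100A8 had 17.1, 14.9 and 16.9 FPKM in ELI, against 49.2, 44.3 and 49.7 FPKM in ABT and 84.5, 79.0 and 83.4 FPKM in DMSO. For both genes the ELI libraries were the lowest and the ABT libraries lay under all DMSO libraries. S100A9 fell by 1.57 (SE 0.11, limma adjusted p = 1.3e-06) and S100A8 fell by 1.49 (SE 0.13, limma adjusted p = 4.4e-06). Of 9 tested S100 genes 1 rose, 3 fell and 5 did not pass, with a median of -0.14 (3 and 3 after GC adjustment, with a median of 0.011). S100A11 fell by 0.50 (SE 0.12), or by 0.33 after GC adjustment, and S100P was higher in ELI than in ABT by 0.53 (SE 0.13), with 0.83, 0.69 and 1.11 FPKM in ELI, against 0.11, 0.35 and 0.43 FPKM in ABT and 1.11, 0.63 and 1.15 FPKM in DMSO. Its ELI values overlapped DMSO, and its ABT values lay under it.

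Granule and progenitor genes held 3 of the largest decreases. Of 19 tested members 2 rose, 10 fell and 7 did not pass, with a median of -0.17 (8 and 9 after GC adjustment, with a median of -0.11). PLAC8, a marker of immature granulocytes (chromosome 4 from 83090048 to 83137075, minus strand), had 26.1, 26.0 and 25.7 FPKM in ELI, against 77.6, 74.3 and 80.4 FPKM in ABT and 87.1, 84.3 and 82.5 FPKM in DMSO. The groups did not overlap, and PLAC8 fell by 1.54 (SE 0.05, limma adjusted p = 8.3e-09). IGLL1, a surrogate light chain gene with a near-identical relative, fell by 1.76 (SE 0.14, limma adjusted p = 3.4e-06), and MS4A3, a marker of granulocyte and monocyte progenitors, fell by 1.44 (SE 0.12, limma adjusted p = 4.5e-06). SRGN, the proteoglycan core of granules, had 1415, 1302 and 1372 FPKM in ELI, against 818, 674 and 706 FPKM in ABT, and rose by 0.90 (SE 0.10, limma adjusted p = 3.0e-05), or 0.59 after GC adjustment.

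Antigen presentation and interferon-stimulated genes were higher in ELI. Of 8 tested MHC class II genes, which display peptides to T cells, 6 rose, 0 fell and 2 did not pass, with a median of 0.39. HLA-DRA (chromosome 6 from 32439842 to 32445046, plus strand) had 95.2, 94.3 and 102 FPKM in ELI, against 40.1, 39.4 and 41.4 FPKM in ABT and 53.4, 60.0 and 60.5 FPKM in DMSO. All ELI values lay above DMSO and all ABT values below it, and the log2 difference was 1.25 (SE 0.07, limma adjusted p = 1.3e-07). HLA-DPA1 (0.91, SE 0.07), the master regulator CIITA (0.67, SE 0.07) and the invariant chain CD74 (0.51, SE 0.10) also had positive log2 differences that passed, and 11.6% of the exonic bases of CIITA are shared with DEXI on the opposite strand. Of 13 tested interferon-stimulated genes 9 rose, 2 fell and 2 did not pass, with a median of 0.23 (8 and 1 after GC adjustment). IFITM1, a membrane protein that blocks viral entry, had 22.9, 24.4 and 26.8 FPKM in ELI, against 9.82, 11.3 and 10.5 FPKM in ABT and rose by 1.15 (SE 0.09, limma adjusted p = 1.9e-06), but 32.5% of its exonic bases are shared with its relative IFITM2. IFI6 rose by 0.59 (SE 0.10), and RSAD2, at 0.98, 1.06 and 0.93 FPKM in ELI, rose by 0.65 (SE 0.09), or 0.32 after GC adjustment.

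The highest log2 differences of all named genes included an enzyme, a siglec, a galectin and a collagen chain. IL4I1, a secreted amino acid oxidase (chromosome 19 from 49889654 to 49929539, minus strand), had 29.5, 37.5 and 33.2 FPKM in ELI, against 3.86, 4.15 and 3.86 FPKM in ABT and 3.67, 4.21 and 5.38 FPKM in DMSO. Its log2 difference of 2.79 (SE 0.11, limma adjusted p = 1.2e-08) was the highest among the genes named by the rule, and 13.1% of its exonic bases are shared with NUP62. SIGLEC6, a sialic acid receptor, had 23.2, 20.6 and 21.9 FPKM in ELI, against 3.35, 2.40 and 3.03 FPKM in ABT and 6.23, 4.02 and 3.97 FPKM in DMSO, and rose by 2.55 (SE 0.13, limma adjusted p = 1.3e-07). LGALS2, a galectin, rose by 2.42 (SE 0.11, limma adjusted p = 5.0e-08). Over the 13 tested galectins and siglecs 5 rose, 5 fell and 3 did not pass, against 33.2% higher and 29.8% lower over all tested genes. The list's median was -0.12, or 0.056 after GC adjustment, and LGALS12 and LGALS9 fell by 0.69 (SE 0.11) and 0.65 (SE 0.08). COL6A1, a collagen chain, had 10.3, 12.2 and 10.5 FPKM in ELI, against 1.51, 1.86 and 1.81 FPKM in ABT, and rose by 2.14 (SE 0.09, limma adjusted p = 2.3e-08).

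IL7R, the interleukin 7 receptor, had 29.6, 27.1 and 26.7 FPKM in ELI, against 6.61, 5.92 and 4.66 FPKM in ABT, and rose by 2.11 (SE 0.14, limma adjusted p = 9.8e-07). In ELI it made up most of the summed T and NK cell markers, which were 31.3 to 34.6 FPKM in ELI, 9.78 to 12.7 FPKM in ABT and 10.7 to 14.9 FPKM in DMSO. Likewise TFRC, the transferrin receptor of all dividing cells, at 86.0, 74.3 and 81.2 FPKM in ELI, against 34.8, 27.97 and 25.7 FPKM in ABT, made up most of the summed erythroid and platelet markers, which were 82.1 to 92.8 FPKM in ELI, 34.7 to 43.8 FPKM in ABT and 37.4 to 46.2 FPKM in DMSO. B cell markers summed to 3.19 to 4.15 FPKM in ELI, 4.69 to 6.01 FPKM in ABT and 5.58 to 7.55 FPKM in DMSO, and stromal and endothelial markers to 18.9 to 19.5 FPKM in ELI, 11.4 to 13.6 FPKM in ABT and 13.3 to 15.1 FPKM in DMSO, with COL1A2, COL3A1, DCN, LUM and CXCL12 listed at 0. In each group 2 of 12 T and NK, 4 of 15 erythroid and platelet and 1 of 12 stromal markers reached 1 FPKM in at least 1 library. Of 9 B cell markers 1 did so in ELI and 2 did in ABT and in DMSO. The part of these markers in the differences was not tested. TFRC was named after its values were seen.

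Amino acid handling was represented on both sides. SLC38A1, a glutamine carrier, had 22.2, 17.8 and 18.8 FPKM in ELI, against 5.61, 4.22 and 3.80 FPKM in ABT, and rose by 1.90 (SE 0.17, limma adjusted p = 8.2e-06). Its relative SLC38A5 had 6.02, 7.26 and 7.38 FPKM in ELI, against 15.97, 18.2 and 18.0 FPKM in ABT, and fell by 1.22 (SE 0.11, limma adjusted p = 9.9e-06). ASS1, which makes argininosuccinate in arginine synthesis, had 14.4, 17.3 and 17.2 FPKM in ELI, against 40.2, 42.7 and 45.9 FPKM in ABT, and fell by 1.35 (SE 0.10, limma adjusted p = 1.6e-06). RESF1, a gene that silences retroviral elements, rose by 1.91 (SE 0.36, limma adjusted p = 0.0011), with 58.7 FPKM in ELI replicate 1 against 26.7 and 33.6 FPKM in ELI replicates 2 and 3. GAL, the neuropeptide galanin, fell by 1.29 (SE 0.10), and APBB1IP, an adaptor that activates integrins, fell by 1.52 (SE 0.08).

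The BCL2 family, through which venetoclax acts, had members on both sides, in shares near those over all tested genes (33.2% higher and 29.8% lower). Of 16 tested members 7 rose, 5 fell and 4 did not pass, with a median of -0.09, or 0.063 after GC adjustment. The BH3-only gene BCL2L11, which encodes the death promoter BIM, had 15.2, 17.1 and 15.5 FPKM in ELI, against 8.10, 7.31 and 7.96 FPKM in ABT and 7.76, 8.996 and 7.28 FPKM in DMSO. ELI lay above all other values, and the log2 difference was 0.95 (SE 0.08, limma adjusted p = 4.4e-06). BMF, another BH3-only gene, rose by 0.74 (SE 0.11, limma adjusted p = 0.00030), while BIK had 16.2, 19.9 and 19.7 FPKM in ELI, against 32.6, 38.9 and 38.6 FPKM in ABT, and fell by 0.94 (SE 0.12, limma adjusted p = 6.7e-05). BCL2A1, an anti-apoptotic member, lay at 1.01, 0.87 and 1.62 FPKM in ELI, against 0.36, 0.28 and 0.25 FPKM in ABT, and rose by 0.72 (SE 0.13). Of 16 caspase and apoptosome genes 5 rose, 4 fell and 7 did not pass, with a median of 0.059, a balance that turned after GC adjustment to 3 and 7, with a median of -0.14. CFLAR, an inhibitor of caspase 8, had 11.5, 10.2 and 11.1 FPKM in ELI, against 4.93, 4.74 and 4.59 FPKM in ABT, and rose by 1.05 (SE 0.07, limma adjusted p = 8.3e-07). BIRC2, an inhibitor of apoptosis, rose by 1.03 (SE 0.19), or 0.52 after GC adjustment, BIRC5, the mitotic survivin, fell by 0.73 (SE 0.10), and CASP6, an executioner caspase, fell by 0.58 (SE 0.07).

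Stress responses were uneven. Of 30 tested genes of the unfolded protein response and folding in the endoplasmic reticulum 15 rose, 2 fell and 13 did not pass, with a median of 0.18. DNAJB9, a co-chaperone of BiP, had 14.4, 14.01 and 13.3 FPKM in ELI, against 6.16, 5.33 and 5.24 FPKM in ABT and 10.9, 6.15 and 7.47 FPKM in DMSO, and rose by 1.18 (SE 0.14, limma adjusted p = 6.4e-05). SEL1L, of the degradation complex of the endoplasmic reticulum, rose by 1.07 (SE 0.17), HSP90B1, its resident HSP90, by 1.02 (SE 0.21), and DNAJC3, an inhibitor of PERK, by 0.85 (SE 0.16), and these 3 stood at 0.56, 0.65 and 0.42 after GC adjustment. Of 24 genes of the integrated stress response 8 rose, 9 fell and 7 did not pass, against 33.2% higher and 29.8% lower over all tested genes. The list's median was 0.0098 (-0.043 after GC adjustment). More rose than fell after GC adjustment (10 and 9), without ELI replicate 1 or 3, and without ABT replicate 2 or 3 (8 and 7 each). PPP1R15A, which reverses the eIF2alpha phosphorylation, rose by 1.00 (SE 0.09, limma adjusted p = 6.0e-06), and DDIT3, the factor CHOP, rose by 0.82 (SE 0.07), with 27.2% of its exonic bases shared with MARS. PHGDH, the entry enzyme of serine synthesis, had 7.87, 9.54 and 8.66 FPKM in ELI, against 15.2, 16.7 and 18.1 FPKM in ABT, and fell by 0.87 (SE 0.11, limma adjusted p = 6.9e-05). SLC7A11, the cystine importer shared with the NRF2 list, rose by 1.40 (SE 0.14, limma adjusted p = 1.5e-05), or 0.68 after GC adjustment.

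Of 22 tested NRF2 targets, which defend against oxidants, 11 rose, 4 fell and 7 did not pass, with a median of 0.30. FTH1, the ferritin heavy chain, had 118, 126 and 119 FPKM in ELI, against 60.0, 64.0 and 43.0 FPKM in ABT and rose by 1.13 (SE 0.15, limma adjusted p = 0.00010), but 62.4% of its exonic bases are shared with BEST1 on the opposite strand and it has many pseudogenes. NFE2L2, the factor NRF2 itself, rose by 1.14 (SE 0.18, limma adjusted p = 0.00043), and PRDX1, a peroxidase, rose by 0.53 (SE 0.07), with 24.9% of its exonic bases shared with MMACHC. Of 23 tRNA synthetase genes 6 rose, 9 fell and 8 did not pass, against 33.2% higher and 29.8% lower over all tested genes. VARS1 fell by 0.99 (SE 0.11) and FARSA fell by 0.68 (SE 0.09) on the log2 scale. NARS1 rose by 0.55 (SE 0.14), and AIMP1, a scaffold of the synthetase complex, rose by 0.70 (SE 0.18, limma adjusted p = 0.0063), a call lost after GC adjustment (0.037, limma adjusted p = 0.56). Of 25 heat shock chaperones 7 rose, 8 fell and 10 did not pass (6 and 13 after GC adjustment, and 8 and 7 without replicate 1 of ELI and ABT). Before adjustment these shares were near those over all tested genes. FKBP4, an HSP90 cochaperone, had 19.7, 22.1 and 21.1 FPKM in ELI, against 40.3, 42.9 and 51.2 FPKM in ABT, and fell by 1.05 (SE 0.11, limma adjusted p = 2.2e-05). HSP90AA1 and HSPH1, inducible chaperones, rose by 0.86 (SE 0.27, limma adjusted p = 0.016) and 0.71 (SE 0.21, limma adjusted p = 0.012), and HSPH1 stood at 0.24 after GC adjustment. Both calls were lost without ELI replicate 1, ABT replicate 2 or ABT replicate 3 (limma adjusted p from 0.051 to 0.067). DNAJB4, a cochaperone, rose by 0.63 (SE 0.17), and after GC adjustment its value was -0.099 and did not pass.

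At the contacts of the endoplasmic reticulum with mitochondria, the theme of the series title, the direction of the list turned with GC adjustment. Of 53 tested genes 22 rose, 16 fell and 15 did not pass, with a median of 0.053, and after GC adjustment 12 rose and 24 fell, with a median of -0.093. OSBPL8, a lipid transfer protein of these contacts, had 30.6, 20.04 and 23.6 FPKM in ELI, against 10.6, 7.02 and 5.15 FPKM in ABT and 22.2, 7.30 and 11.0 FPKM in DMSO, with replicate 1 the highest in each group. OSBPL8 rose by 1.61 (SE 0.32, limma adjusted p = 0.0015), or 0.91 after GC adjustment. RAB38, the nearest relative of RAB32, had 2.60, 2.28 and 2.02 FPKM in ELI, against 0.65, 0.89 and 0.60 FPKM in ABT, and rose by 0.95 (SE 0.10, limma adjusted p = 2.5e-05). VPS13C, a bridge-like lipid carrier, rose by 0.92 (SE 0.21), or 0.28 after GC adjustment. ITPR3, a calcium channel that feeds mitochondria, fell by 0.77 (SE 0.07, limma adjusted p = 1.1e-05), with 10.4% of its exonic bases shared with UQCC2.

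Set against vehicle, more genes passed in ELI than in ABT, a difference in number that was not itself tested. The DMSO libraries are shared by both of these comparisons, so each drug's values are given side by side as descriptions. Across 9936 genes the difference from DMSO followed GC content with a Spearman's rho of -0.479 in ELI and 0.656 in ABT. No value against DMSO was GC-adjusted, and the part of these trends in the counts and distances was not tested. Against DMSO, 16.4% of tested genes were higher and 19.8% lower in ELI, while in ABT 0 genes were higher and 15 genes (0.151%) were lower by limma's adjusted p. At an unadjusted p under 0.05, 2267 genes were higher and 2469 lower in ELI, and 923 were higher and 1088 lower in ABT. The DMSO mean lay nearer to the ABT mean than to the ELI mean for 74.2% of the 6279 genes that differed between the drugs, and for 93.0% of the 302 genes past 1. The Comb mean lay nearer to the ELI mean for 93.4% and 98.3% of them. BHLHE40 stood at 2.74 above DMSO in ELI and at 0.18 in ABT on the log2 scale. PLAC8 stood at -1.67 in ELI and at -0.13 in ABT against DMSO. UGCG stood at 0.77 in ELI and at -0.41 in ABT against DMSO, of which the first passed (limma adjusted p = 0.0024) and the second did not (0.20).

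**Figure D4:**
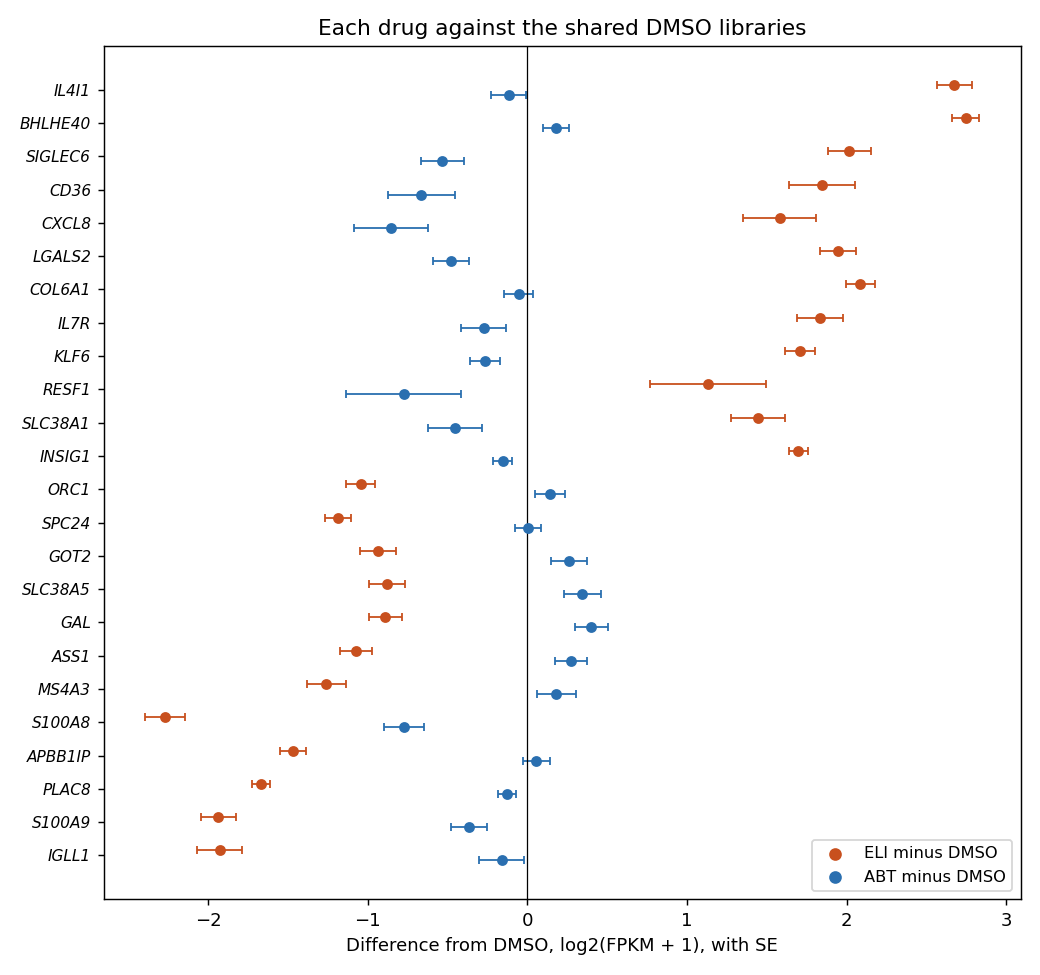
Log2 difference from DMSO with its SE (horizontal axis) in ELI (orange, upper point) and ABT (blue, lower point) for the 12 highest and 12 lowest genes of ELI against ABT. Both drugs share the DMSO libraries. The ELI points lie between 1.13 and 2.74 or between -2.27 and -0.88, and the ABT points between -0.85 and 0.40.

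A small group of genes lay on opposite sides of DMSO in the 2 drugs without overlapping it. By means alone this position was common. The DMSO mean lay between the ELI and ABT means for 87.2% of the 6279 genes that passed and for 93.7% of the 302 past 1. ELI and ABT lay on opposite sides with no overlap with DMSO in 413 of the genes that passed (6.58%), 167 of them higher than DMSO in ELI and lower in ABT, and 246 the reverse. These counts were not GC-adjusted, although the difference from DMSO followed GC content in opposite directions in the 2 drugs. The part of that trend in them was not tested. By the size of the smaller displacement the first were SIGLEC6, H2AC6, HLA-DRA, TUBA1A, KLHL24 and JAML, all higher than DMSO in ELI and lower in ABT. Against DMSO the ABT value of SIGLEC6 (-0.53) did not pass (limma adjusted p = 0.14). Those of H2AC6, HLA-DRA and TUBA1A did (limma adjusted p = 0.0089, 0.0089 and 0.042). TUBA1A, an alpha tubulin with near-identical relatives, had 17.2, 18.8 and 18.3 FPKM in ELI, against 5.80, 6.41 and 6.68 FPKM in ABT and 8.15, 10.6 and 11.0 FPKM in DMSO. JAML, an adhesion protein of leukocytes, had 19.4, 19.8 and 19.8 FPKM in ELI, against 6.74, 6.04 and 6.95 FPKM in ABT and 9.88, 10.00 and 9.27 FPKM in DMSO. JAML stood at 0.95 above DMSO in ELI and at -0.50 in ABT, and both passed (limma adjusted p = 1.7e-06 and 0.010). KLHL24, a ubiquitin ligase adaptor, stood at 0.82 in ELI and at -0.56 in ABT against DMSO, of which the second did not pass (limma adjusted p = 0.16). Between the drugs KLHL24 differed by 1.38 (SE 0.16), or 0.74 after GC adjustment.

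Other genes stood off DMSO on the same side under both drugs and did not pass against each other, which does not show that the drugs moved them alike. In 107 of the 9959 genes (1.07%) ELI and ABT lay on the same side of DMSO without overlap and without passing between the drugs, 39 of them lower and 68 higher than DMSO. PRL, the prolactin gene, had 5.06, 4.59 and 4.77 FPKM in ELI, against 5.07, 5.15 and 4.37 FPKM in ABT and 8.42, 8.31 and 8.38 FPKM in DMSO. It stood at -0.69 in ELI and at -0.68 in ABT against DMSO, both of which passed (limma adjusted p = 5.0e-05 and 0.0039). ELI minus ABT was -0.011 for PRL (SE 0.08, 95% interval -0.18 to 0.15). After GC adjustment it was -0.16, which did not pass (limma adjusted p = 0.067). MYC, a driver of growth genes, had 64.7, 69.2 and 65.3 FPKM in ELI, against 58.5, 60.2 and 64.0 FPKM in ABT and 40.6, 54.1 and 45.8 FPKM in DMSO. The ELI values lay above the ABT values without overlap. MYC differed between the drugs by 0.12 (SE 0.09, limma adjusted p = 0.24), and by 0.27 after GC adjustment, where it passed (limma adjusted p = 0.00042). PPP1R27, a phosphatase regulator, had 119, 128 and 123 FPKM in ELI, against 122, 127 and 123 FPKM in ABT and 86.5, 110 and 97.0 FPKM in DMSO, a log2 difference between the drugs of -0.0021 (SE 0.08), but of 0.23 after GC adjustment (limma adjusted p = 0.00039). C1orf54 and SLC46A3, a lysosomal transporter, lay under DMSO with both drugs, at -0.58 and -0.42 in ELI and at -0.44 and -0.34 in ABT. C1orf54 differed between the drugs by -0.14 (SE 0.10), or -0.045 after GC adjustment, and neither passed. Against DMSO the ABT values of MYC, PPP1R27 and C1orf54 (limma adjusted p = 0.13 each) and of SLC46A3 (0.18) did not pass. SLC46A3 passed between the drugs after GC adjustment (-0.40, limma adjusted p = 0.00053), and 36.3% of the exonic bases of C1orf54 are shared with APH1A.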

How the data were processed

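Transcript levels were given for 12 libraries of MV-4-11 cells as FPKM, computed by the authors and deposited as a table, per the file headers. No source used here gives the aligner, counter, strand setting or genome build. Dividing by what 1 read is worth gave whole reads for 100.0% of the 16361 genes above 0 (tolerance 1e-05), 17259889 to 21082288 reads per library, and 1 read of a gene of 5 kb was worth 0.00949 to 0.0116 FPKM. The test used the FPKM values, since the table holds this unit, although the design had allowed for counts. Genes that reached 1 FPKM in at least 3 of 12 libraries were fitted as log2(FPKM + 1) with limma 3.58.1 in R 4.3.3, with trend and robust moderation, 4 group means over 12 libraries and the contrast ELI minus ABT, and p-values were adjusted by Benjamini-Hochberg over 9959 genes with a threshold of 0.05. The fit was tested on simulated data, which held no trend on GC content or gene length. A voom fit of the recovered reads called 6276 genes.

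The replicate numbers of the labels were a block in the GC-adjusted fit and in some alternatives, and the main fit had no block. Deviations of same-numbered ELI and ABT libraries from their group means correlated across genes at 0.740, 0.380 and 0.262. Pairs with different numbers ran from -0.675 to 0.571. As this range reaches above 0.380 and 0.262, the correlations do not decide whether the numbers pair the libraries. GC content and gene length were known for 99.8% of tested genes, from GENCODE 29, and their trend was removed from each library by loess with a span of 0.5. The genes named are UGCG, BCL2 and RAB32, the 12 highest and 12 lowest passing genes that averaged 5 FPKM or more in ELI or ABT without overlap, up to 4 passing members of each of 41 lists by size, and the 6 genes most displaced from DMSO on opposite sides and on the same side. Those on the same side averaged 5 FPKM or more in any group. The members and lists were chosen with earlier results of these data known. Alternatives were another scaling, filters, pseudocounts, the 6 libraries alone, the block, the trend removal, voom and leaving out libraries. Some genes that the rule names are not reported here.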

Additional observations from a re-analysis of the deposited data

How the results depend on the processing

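Across the other settings the number of genes passing between ELI and ABT ran from 4655 (a filter of 5 FPKM) to 7307 (the block within 6 libraries), against 6279. Blocking on the replicate number gave 6815, and the block ended no call of a named gene. Leaving out 1 library gave 4772 (without ABT replicate 3) to 6487 (without ABT replicate 1). Genes past a log2 difference of 1 were 302 as reported, 628 with a pseudocount of 0.1, 713 with voom, 473 without ABT replicate 1, 211 without ABT replicate 3, and 132 with the GC trend removed. Removing a single library at a time left 4434 of the 6279 calls and 299 of the 302. The median difference over all genes ran from -0.0469 to 0.041. Of 170 named genes that passed, 164 kept their call in the other 19 settings that tested them. With the GC trend removed, with and without the block, ORMDL1 and AIMP1 no longer passed, and DNAJB4 stood at -0.0994. HSP90AA1 and HSPH1 lost their calls without ELI replicate 1 (limma adjusted p = 0.067 and 0.052), ABT replicate 2 (0.057 and 0.051) or ABT replicate 3 (0.065 and 0.055), and TTK without ELI replicate 1 or ABT replicate 3. Of genes that did not pass, RAB32 turned to 0.051 with the GC trend removed and 0.00551 without ABT replicate 3, the top of a range that began at -0.179 without ABT replicate 1. PRL turned to 0.0158 without ELI replicate 2, 0.0149 without ABT replicate 1 and 0.0248 without ABT replicate 2, against -0.0736 without ABT replicate 3, and SLC46A3 to 0.0189 without ABT replicate 1, against -0.131 without ABT replicate 2. PPP1R27 turned to 0.23 with the GC trend removed, 0.0216 without ELI replicate 1, 0.00118 without ELI replicate 3, 0.0148 without ABT replicate 2 (-0.0289 without ELI replicate 2), and 0.00961 without replicate 1 of ELI and ABT or without all 4 libraries numbered 1, a setting chosen after seeing the data. The cause of these turns was not tested. There were 3 libraries a group, the doses are unstated, and a base composition trend ran with the groups. Some named genes changed sign or call with the GC trend removed or with libraries left out. Under median-of-ratios scaling all 177 named genes stayed the same.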
